A study of Mus musculus with 6 samples.

Results

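Hox genes encode homeodomain transcription factors that are arranged in 4 clusters, HoxA to HoxD, and numbered by paralog group along each cluster. In the embryo they are activated in the order of their position, so that low-numbered (anterior) genes mark rostral levels and high-numbered (posterior) genes mark caudal levels of the body axis. Adult intestine keeps part of this pattern, and the paralogs of group 13 are known for their expression in hindgut and distal colon. The 38 Hox genes described here were chosen by name, from a list of symbols of the 4 clusters, as a gene family and by no threshold on a measured value, although earlier results of these data were known.

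Colonic mucosa was compared between mice lacking Tlr2 (Tlr2-/-), the toll-like receptor for bacterial lipoproteins, and wild-type (WT) mice. All mice were C57BL/6 and 90 postnatal days old. The labels give no sex, do not say how the knockout allele was made or whether a sample pools animals, and describe mucosa sheared off with a slide, so the section of colon scraped is not stated. Total RNA from 4 knockout and 4 WT samples was hybridised on 4 two-colour Agilent arrays of 1 slide, 1 knockout and 1 WT sample per array, and each array is called here by its knockout number as pair 1, 2, 4 or 5. Knockout RNA carried Cy3 in pairs 1 and 2 and Cy5 in pairs 4 and 5. The labels do not say that the samples are separate animals, so p-values measure only the spread between these 4 pairs. The fit has a term for the dye, so that spread is the one within each dye orientation, whereas each SD given below is over all 4 pairs.

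A probe was found for 35 of the 38 Hox genes, out of 17305 named genes with a probe, and 28 of them passed the filter on dim probes, out of 14695 genes tested. A probe passed if 2 or more arrays had it well above background for the knockout samples, or for the WT samples. All 10 HoxA members, 9 of 10 HoxB members and all 9 HoxD members passed. No HoxC gene did: of the 9 members, 6 had a probe (Hoxc5, Hoxc8, Hoxc9, Hoxc10, Hoxc12 and Hoxc13), and no probe was matched to Hoxc4, Hoxc6 or Hoxc11. Hoxb1, the most anterior HoxB member listed, was the other gene not kept, with 0 of 8 channels well above background. By class, 20 of 26 genes of paralog groups 1 to 9 and 8 of 12 genes of groups 10 to 13 were kept. In 23 of the 28 genes the probe used was well above background in all 8 channels, and no kept gene passed in 1 genotype only. No Hox probe was saturated in any channel.

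On the arrays as a whole, 63.3% to 76.5% of the spots were well above background per channel. Tlr2 itself, the check of the labels, had a log2 ratio of knockout over WT of -4.42 in pair 1, -5.31 in pair 2, -5.50 in pair 4 and -4.20 in pair 5, so the direction of all 4 ratios was that of the labels. Pair 1 stood apart from the other arrays. Its ratios correlated with those of pair 2 at r = -0.21, of pair 4 at r = -0.42 and of pair 5 at r = -0.11 across genes, which are not independent replicates, whereas the other 3 arrays correlated with each other at 0.42 to 0.57. The 8 epithelial markers were all measured and well above background in every channel, and so were the 7 smooth muscle markers, so muscle markers were detected beside epithelial ones in every sample. In such bulk samples fewer cells of a type and less RNA per cell cannot be told apart.

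No Hox gene was called in the test across all genes, which called no gene at all. Tlr2, with ratios below -4 on every array, had an adjusted p of 0.315 (limma), and the smallest adjusted p of any gene was 0.0577, so a missed threshold does not show that a Hox gene was equal in both genotypes. Limma with a dye term with a threshold of 0.05 on the adjusted p, called 0 of 28 Hox genes as higher, against a background of 0% of all 14695 genes, and 0 as lower, against 0%, and the smallest adjusted p of a Hox gene was 0.597. At an unadjusted p under 0.05 there were 3 of 28, all with higher ratios, against a background of 8.06% of all genes. The submitters' own rule asks for a ratio past 1.6-fold on at least 2 arrays and for no array with a ratio in the opposite direction. It took 0 Hox genes as higher (background 0.742%) and 0 as lower (background 0.701%). The authors' deposited tables of increased and decreased genes hold 0 Hox genes as well. With pair 1 left out, the same rule took 3 Hox genes as higher, Hoxa10, Hoxa11 and Hoxa13, against 2.62% of all genes, and 2 as lower, Hoxb2 and Hoxb5, against 3.35% of all genes. Without pair 4 it took 1 Hox gene as lower, Hoxb13, against 0.612% of all genes.

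The Hox ratios spread widely between the pairs. The range over the 4 arrays (highest minus lowest log2 ratio) was at least 2, a 4-fold difference, in 14 of 28 Hox genes, against 4.46% of all genes. The median range was 2.08 for the Hox genes and 0.62 for all genes, and 6 Hox genes were among the 50 genes with the widest range. Hoxd13 had the widest range of all genes tested, 6.91, but its probe was not well above background in knockout 1, so that size is not exact. Its second probe, well above background in all 8 channels, had a range of 4.89, which ranked 9 when set among the other genes. Pair 1 carried much of this: without it, 3 of 28 Hox genes had a range of at least 2, against 0.721% of all genes.

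**Figure D1:**
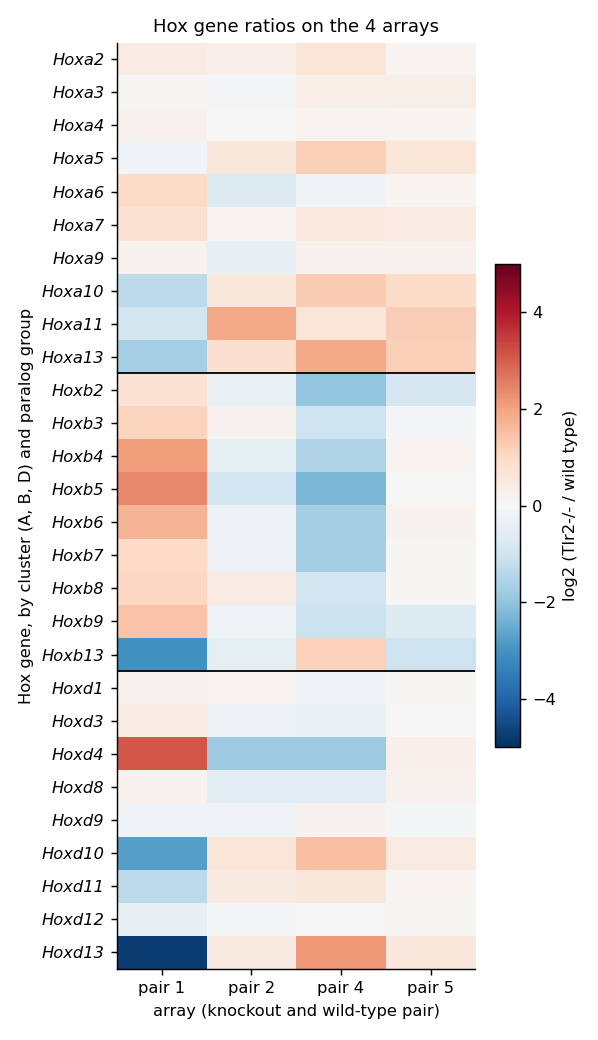
Heat map of the log2 ratio of Tlr2-/- over WT for the 28 Hox genes kept (rows, by cluster and paralog group, black lines between clusters) on the 4 arrays (columns); red is higher and blue lower in the knockout sample. In pair 1 the genes of groups 10 to 13 are blue, from -4.76 for Hoxd13 to -0.39 for Hoxd12, and HoxB groups 2 to 9 are red, while in pair 4 the colours of both sets are turned, except for Hoxd12 at 0.00.

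The class medians differed by position in the cluster, and the ratios differed by cluster too. In pair 1 the 8 genes of groups 10 to 13 all had negative ratios, with a median of -1.48, while 18 of 20 genes of groups 1 to 9 had positive ratios, with a median of 0.73. By cluster, the medians of groups 1 to 9 in pair 1 were 0.20 for HoxA, 1.27 for HoxB and 0.22 for HoxD. In pair 4 the classes were the other way round: 7 of 8 posterior genes had positive ratios, with a median of 1.21, and 13 of 20 anterior genes had negative ratios, with a median of -0.46. Pair 2 had medians of 0.50 for groups 10 to 13 and -0.23 for groups 1 to 9. In pair 5 these medians were 0.50 and 0.09. The 7 anterior HoxA genes went with the posterior genes in pair 4, with 6 of 7 positive and a median of 0.35. HoxA as a whole had 9 of 10 positive ratios in pair 4 and 10 of 10 in pair 5, so most of the negative anterior ratios in pair 4 were those of HoxB, 8 of 8, and HoxD, 4 of 5. The median over all genes lay between -0.03 and 0.00 on every array.

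The posterior median minus the anterior median was -2.21 in pair 1, 0.74 in pair 2, 1.67 in pair 4 and 0.41 in pair 5. Thus 3 pairs had the posterior genes higher in the knockout relative to the anterior ones, and pair 1 had the opposite at a larger size, so that the sign of this difference was not shared by the 4 pairs. Between pairs 1 and 4, 22 of 28 Hox genes had opposite signs, which was 7 of 8 posterior and 15 of 20 anterior genes, and over all genes tested 64.8% did. Pair 1 stood against the other 3 arrays in 11 of 28 Hox genes and in 32.3% of all genes.

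**Figure D2:**
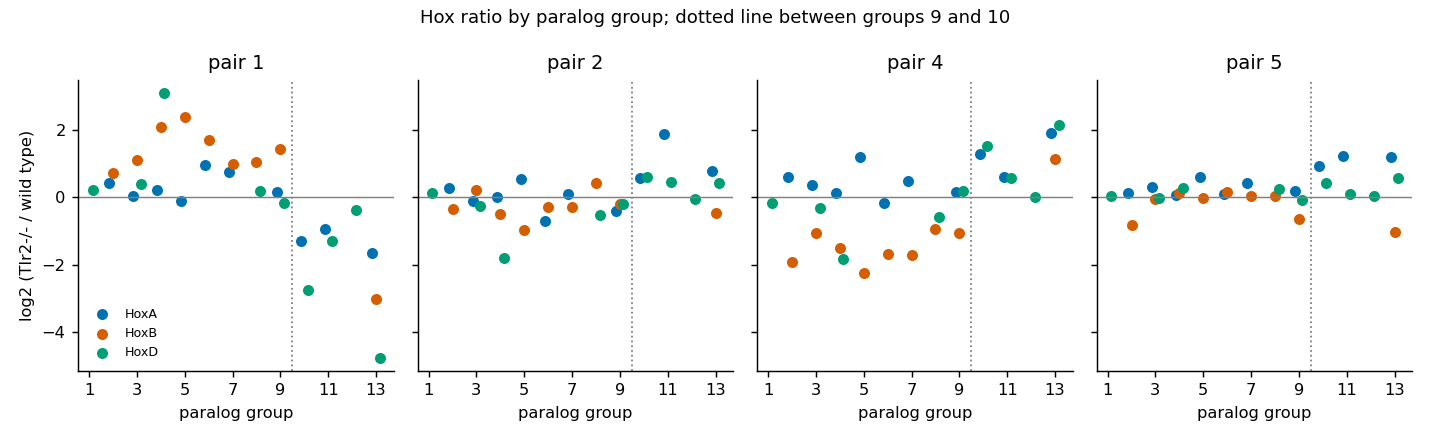
Log2 ratio of Tlr2-/- over WT (vertical axis) against paralog group (horizontal axis) for the 28 Hox genes on each of the 4 arrays, coloured by cluster; points of 1 group are shifted sideways by cluster for legibility, and the dotted line separates groups 9 and 10. The median falls from 0.73 left of the line to -1.48 right of it in pair 1, and goes from -0.46 to 1.21 in pair 4.

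Among the posterior genes, Hoxd13, the last gene of the HoxD cluster and a regulator of digits and of the hindgut and urogenital outlet, had log2 ratios of -4.76 in pair 1, 0.43 in pair 2, 2.15 in pair 4 and 0.58 in pair 5. Pair 1 alone was below zero, and the mean of the 4 pairs was -0.40 ± 3.01 (SD, n = 4 pairs; limma adjusted p = 0.946). Its second probe gave the same signs, at -3.00, 0.74, 1.89 and 0.45 in pairs 1, 2, 4 and 5, with a mean of 0.02, and was 8.01-fold lower in the knockout in pair 1. The probe used was not well above background in the knockout sample of pair 1, so the size of that ratio is set by a signal near background.

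Hoxd10, a neighbour of Hoxd13 in the same cluster, followed it, with ratios of -2.74, 0.61, 1.51 and 0.42 in pairs 1, 2, 4 and 5. Its mean was -0.05 ± 1.86 (SD, n = 4 pairs; limma adjusted p = 0.994). Hoxd12, which lies between them, was near background and hardly moved, at -0.39, -0.06, 0.00 and 0.04. Hoxd11 had a range of 1.87.

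Hoxb13, the only posterior HoxB gene and a regulator known for prostate and distal colon epithelium, had ratios of -3.03, -0.47, 1.14 and -1.04 in pairs 1, 2, 4 and 5. It was lower in the knockout in 3 pairs and higher in pair 4, the reverse of Hoxd13 in pairs 2 and 5. Its mean was -0.85 ± 1.72 (SD, n = 4 pairs; limma adjusted p = 0.741).

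The 3 posterior HoxA genes had the same sign in pairs 2, 4 and 5. Hoxa13, required for hindgut and genital tubercle development, stood at -1.66, 0.79, 1.89 and 1.20 in pairs 1, 2, 4 and 5. Hoxa11, a regulator of limb, kidney and uterus, stood at -0.93, 1.88, 0.61 and 1.23. Hoxa10, known for its role in the uterus and in blood progenitors, stood at -1.30, 0.56, 1.28 and 0.91. All 3 were negative in pair 1, the one array where they were. Their 4-pair means were 0.56 ± 1.54, 0.70 ± 1.20 and 0.36 ± 1.15 (SD, n = 4 pairs), each within its SD of zero. The limma adjusted p values were 0.779 for Hoxa13, 0.754 for Hoxa11 and 0.809 for Hoxa10. The other Hoxa13 probe differed from the one used by at most 0.26 on any array.

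Among the anterior genes, Hoxd4, a regulator of hindbrain and cervical identity, was the mirror image of Hoxd13 in pairs 1 and 4, with ratios of 3.09, -1.81, -1.82 and 0.27 in pairs 1, 2, 4 and 5. Its range of 4.91 ranked 9 among all genes, and its mean was -0.07 ± 2.32 (SD, n = 4 pairs; limma adjusted p = 0.994). The other anterior HoxD genes moved little: Hoxd1, Hoxd3, Hoxd8 and Hoxd9 had ranges of 0.41, 0.71, 0.81 and 0.38.

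The anterior HoxB genes moved as a block in pairs 1 and 4. All 8 kept genes, Hoxb2 to Hoxb9, had positive ratios in pair 1, with a median of 1.27, and all 8 had negative ratios in pair 4, with a median of -1.60. In pair 2 the median was -0.30 with 2 of 8 positive, and in pair 5 the genes were split, with 4 of 8 positive. Hoxb5, which acts in foregut and in enteric neural crest, had the widest range of these, with ratios of 2.39, -0.97, -2.24 and -0.04 in pairs 1, 2, 4 and 5. Hoxb4, known from blood stem cells, followed at 2.08, -0.49, -1.51 and 0.14. Hoxb6 stood at 1.68, -0.30, -1.69 and 0.16, and Hoxb7 at 0.98, -0.30, -1.71 and 0.05. Hoxb9 stood at 1.43, -0.20, -1.07 and -0.63, and Hoxb3 at 1.097, 0.21, -1.05 and -0.05. The second Hoxb9 probe had the opposite sign in pair 1, at -0.16, and in pair 5, at 0.52. Of the 9 Hox genes with 2 kept probes, Hoxa13 and Hoxd13 had probes of 1 sign on all 4 arrays, and in 5 the means of the 2 probes had opposite signs.

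Hoxb2, a hindbrain regulator, was positive in pair 1 only, at 0.71, against -0.35 in pair 2, -1.94 in pair 4 and -0.82 in pair 5. Its mean was -0.60 ± 1.096 (SD, n = 4 pairs) with an unadjusted limma p of 0.0984 (adjusted p = 0.637).

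The anterior HoxA genes included the 3 Hox genes with the smallest p-values. Hoxa5, known for lung and gut development, had ratios of -0.13, 0.55, 1.19 and 0.61 in pairs 1, 2, 4 and 5. Hoxa7 had 0.75, 0.08, 0.47 and 0.42, and Hoxa2, a hindbrain and branchial arch regulator, had 0.42, 0.26, 0.60 and 0.13. Hoxa7 and Hoxa2 were higher in the knockout in 4 of 4 pairs, and Hoxa5 in 3 of 4. Their means were 0.55 ± 0.54, 0.43 ± 0.28 and 0.35 ± 0.20 (SD, n = 4 pairs) for Hoxa5, Hoxa7 and Hoxa2. The unadjusted limma p was 0.0343 for Hoxa5, 0.0393 for Hoxa7 and 0.0411 for Hoxa2, and the adjusted p was 0.597 for each, so none passed the test over all genes. Hoxa3 stood at 0.04, -0.11, 0.35 and 0.30, with its second probe averaging -0.02. In all, 3 of 28 Hox genes (Hoxa2, Hoxa4 and Hoxa7) had 1 sign on all 4 arrays, against 15.5% of all genes.

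The promoters of the 3 HoxD genes with the widest ranges are shown because these genes lie in 1 cluster and moved together (Hoxd13 and Hoxd10) or against each other (Hoxd13 and Hoxd4). Each is the 250 bases before the RefSeq transcription start on chromosome 2 of GRCm38.p6, plus strand, at chr2:74667975-74668224 for Hoxd13, chr2:74691641-74691890 for Hoxd10 and chr2:74721728-74721977 for Hoxd4. Capitals mark matches, on either strand, to TTTATT, a core found in the binding sites of Cdx and posterior Hox proteins. The other word searched, TAATTA, a core of many other homeodomain proteins, has no match in these windows.
Hoxd13: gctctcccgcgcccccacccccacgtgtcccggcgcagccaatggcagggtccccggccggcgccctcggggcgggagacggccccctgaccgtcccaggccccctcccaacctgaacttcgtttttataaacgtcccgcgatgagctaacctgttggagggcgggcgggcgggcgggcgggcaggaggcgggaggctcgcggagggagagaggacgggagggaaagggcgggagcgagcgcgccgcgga
Hoxd10: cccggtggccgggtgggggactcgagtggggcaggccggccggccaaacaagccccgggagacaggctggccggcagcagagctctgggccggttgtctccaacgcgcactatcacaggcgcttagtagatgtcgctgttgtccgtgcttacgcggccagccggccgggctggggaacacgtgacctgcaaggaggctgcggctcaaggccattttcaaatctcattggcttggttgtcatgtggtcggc
Hoxd4: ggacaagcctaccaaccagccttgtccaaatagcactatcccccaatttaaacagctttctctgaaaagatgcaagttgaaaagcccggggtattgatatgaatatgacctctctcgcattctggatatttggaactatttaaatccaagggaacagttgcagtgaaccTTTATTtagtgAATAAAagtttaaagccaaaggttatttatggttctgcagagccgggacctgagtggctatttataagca
The Hoxd13 and Hoxd10 windows are rich in CpG, with 31 and 20, and the Hoxd4 window has 3. The median over 24 windows of 22 Hox genes was 12.5 and it was 6 over all 32851 windows. TTTATT occurs at 2 places in the Hoxd4 window, in 5 of the 24 Hox windows and in 18.1% of all windows, and TAATTA in 2 Hox windows and 4.84% of all. A match describes the letters and is not evidence of binding.

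Ratios do not tell which sample of a pair was high or low, so levels were compared within a dye and for 1 probe at a time. The levels are on a log2 scale, normalized between the 4 arrays on average intensity and not between the 8 channels. Hoxd13 among the Cy3 samples was 6.71 in knockout 1, 10.65 in knockout 2, 9.66 in WT 4 and 8.98 in WT 5. Among the Cy5 samples it was 11.81 in knockout 4, 9.56 in knockout 5, 11.47 in WT 1 and 10.22 in WT 2. The 2 knockouts therefore enclosed the 2 WT samples in both dyes, and the genotypes overlapped. The very low ratio in pair 1 joined the lowest Cy3 sample, a knockout, with a WT sample that was high among its dye.

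Hoxd4 had the reverse order among the Cy3 samples, at 12.22 in knockout 1, 10.09 in WT 4, 9.51 in WT 5 and 8.43 in knockout 2. Among the Cy5 samples it was 10.23 in WT 2, 9.78 in knockout 5, 9.13 in WT 1 and 8.26 in knockout 4. Hoxb5 followed Hoxd4, with 11.65 in knockout 1 and 9.25 in knockout 2, around WT levels of 10.64 and 9.85 (Cy3). For both genes the 2 Cy3 knockouts lay on either side of the WT samples.

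**Figure D3:**
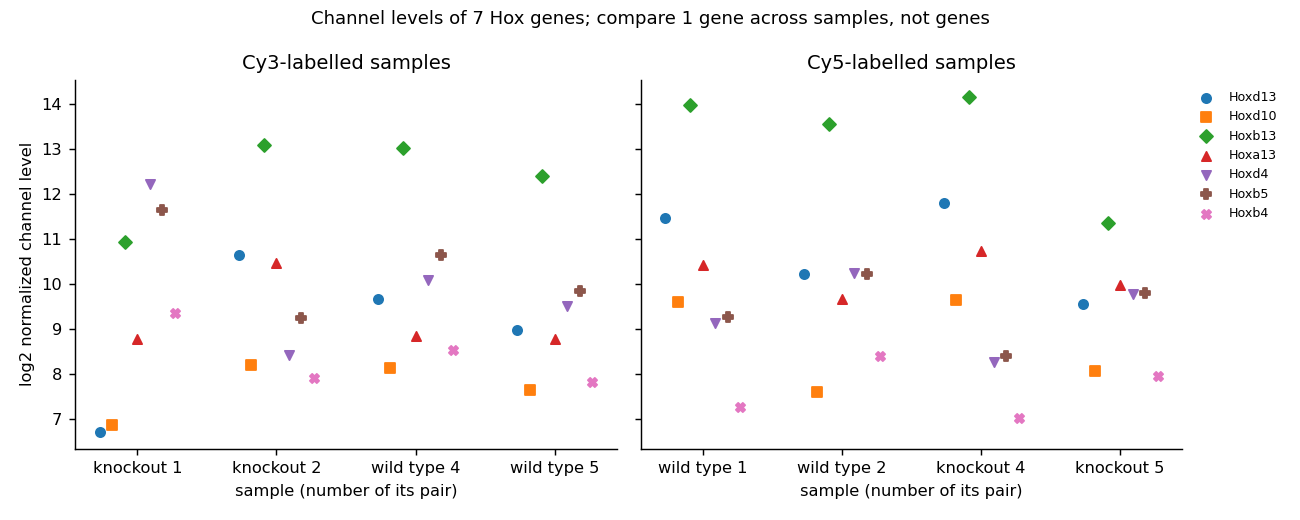
Log2 normalized channel level (vertical axis) of 7 Hox genes in each Cy3-labelled sample (left) and Cy5-labelled sample (right), 1 marker per gene and sample. Hoxd13 runs from 6.71 in knockout 1 to 10.65 in knockout 2 while Hoxd4 runs from 12.22 to 8.43 in the same samples, and the WT samples lie between them; heights of different genes are not comparable.

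The 8 posterior genes shared the extremes of Hoxd13 among the Cy3 samples, though not among the Cy5 samples. Among the Cy3 samples, all 8 were highest in knockout 2 and all 8 were lowest in knockout 1, where 6 of 8 were highest and 7 of 8 lowest when the processed signals were scaled to their 75th percentile, and 8 of 8 and 6 of 8 under quantile scaling. Of the anterior genes, 13 of 20 were highest in knockout 1, and they were lowest in knockout 2 in 7 of 20 and in WT 4 in 8 of 20. Hoxa2, Hoxa3, Hoxa7, Hoxa9 and Hoxd1 were higher in both Cy3 knockouts than in both Cy3 WT samples, and Hoxb2 was lower in both. The Hoxd1 probe was well above background in only 4 of 8 channels. Among the Cy5 samples, all 8 anterior HoxB genes were lowest in knockout 4, which held under both other scalings, and 4 of 8 posterior genes were highest there. The posterior genes were lowest in knockout 5 in 4 of 8 and in WT 2 in 4 of 8. Hoxa2, Hoxa4, Hoxa5, Hoxa10 and Hoxa11 were higher in both Cy5 knockouts than in both Cy5 WT samples. Hoxa9, Hoxb2, Hoxb9, Hoxd9 and Hoxd12 were lower in both Cy5 knockouts than in both Cy5 WT samples. Across the dyes, Hoxa2 was thus higher and Hoxb2 lower in each knockout than in the WT samples of its dye, while Hoxa9 changed direction. These orders were not tested, and the share of all genes with such an order was not counted. With so few samples per dye many genes can separate by order alone, so the lists are not read as a result about Hox genes.

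The Hox levels of 2 samples of 1 genotype and dye were often farther apart than the genotype means. Among the Cy3 samples, the 2 knockouts differed by more than the genotype means did in 23 of 28 Hox genes (65.5% of all genes), and the 2 WT samples in 15 of 28 (49.7% of all genes). Among the Cy5 samples this was so for the knockouts in 19 of 28 (44.2% of all genes) and for the WT samples in 18 of 28 (58.4% of all genes). A difference between single samples varies more than one between means, so these counts are read only against the shares of all genes. Over the posterior genes the median log2 difference was 1.68 between knockouts 1 and 2 and 0.45 between WT 4 and 5 (Cy3), and 0.95 between knockouts 4 and 5 and 0.65 between WT 1 and 2 (Cy5). Over all genes the 4 medians were 0.25, 0.15, 0.13 and 0.22.

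**Figure D4:**
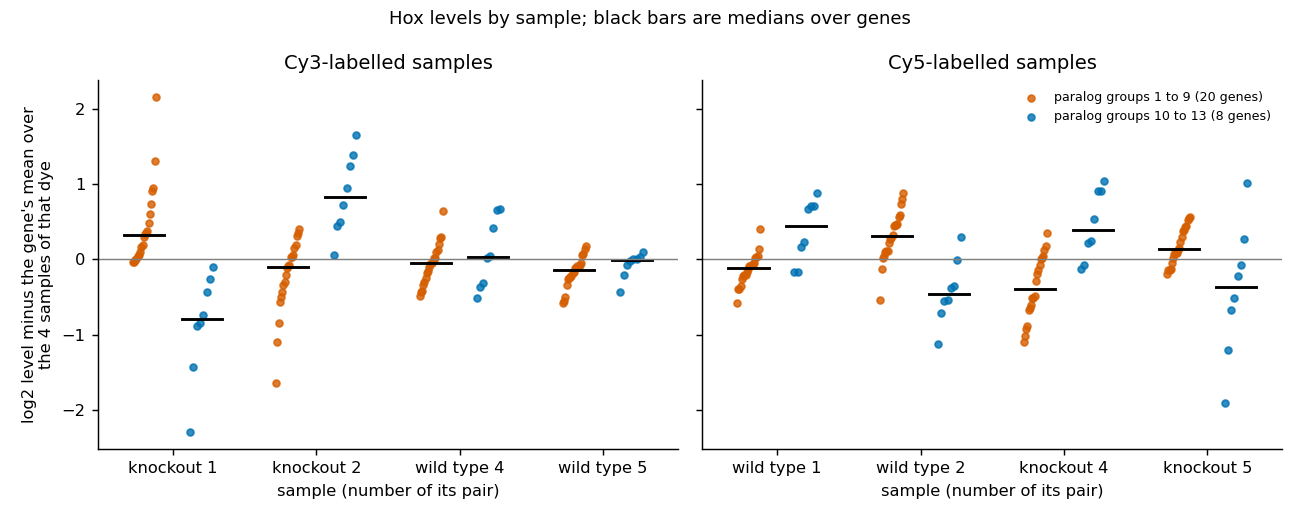
Log2 level minus the gene's mean over the 4 samples of the same dye (vertical axis), per sample (horizontal axis), for 20 Hox genes of groups 1 to 9 (orange) and 8 of groups 10 to 13 (blue); points are genes and black bars are medians. In knockout 1 the medians are 0.32 for groups 1 to 9 and -0.79 for groups 10 to 13, and in the WT samples of the Cy3 panel they lie between -0.14 and 0.04. In the Cy5 panel the medians of groups 10 to 13 are 0.45 in WT 1, -0.46 in WT 2, 0.39 in knockout 4 and -0.36 in knockout 5.

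Limma called none of the cofactors, regulators and neighbours of Hox genes, 0 of 78 measured genes, with 7 at an unadjusted p under 0.05, near the 8.06% of all genes. The TALE homeodomain cofactors (Pbx, Meis and Pknox genes, which bind DNA together with Hox proteins) had 8 of 9 members measured, with medians of -0.10, 0.21, 0.09 and 0.18 in pairs 1, 2, 4 and 5. Among Polycomb genes, the repressors of silent Hox clusters, all 21 were measured, 0 passed limma or the submitters' rule, and 3 had an unadjusted limma p under 0.05. The smallest p was that of Jarid2, an accessory subunit of the H3K27 methyltransferase, with ratios of -0.02, 0.15, 1.04 and 0.96 (limma adjusted p = 0.597). Cbx2, a Polycomb reader of H3K27 methylation, was -0.46, -0.40, -0.07 and -0.14.

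Trithorax group genes and H3K27 demethylases, which oppose Polycomb, had 10 of 12 members measured and 0 called. Dpy30, a subunit of the H3K4 methyltransferase complexes, stood at 0.15, -0.59, -1.03 and -0.83, and Kdm6b, which removes H3K27 methylation, at -0.08, 0.72, 0.71 and 0.61. Of the retinoic acid pathway, which controls anterior Hox genes in the embryo, 15 of 18 genes were measured and 0 passed either call. Rxra, a retinoid receptor, stood at 0.15, 0.37, 0.39 and 0.24.

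Of the ParaHox and Evx genes, 6 of 8 were measured. Evx1, which lies beside the HoxA cluster next to Hoxa13, was the 1 gene of these lists past the submitters' rule. By it 0.742% of all genes were higher and 0.701% lower. The ratios of Evx1 were 0.06, 0.74, 0.68 and 0.24 in pairs 1, 2, 4 and 5 (limma adjusted p = 0.624), and that of pair 4 lay at the 1.6-fold limit. Evx1 was not past the rule when no background was subtracted or when pair 2 or pair 4 was left out. Cdx2, the caudal homeobox regulator of intestinal identity, stood at 0.10, 0.09, -0.80 and -0.02. Among 18 other genes beside the clusters, 0 were called and 1 had a range of at least 2, near the share of all genes. That gene was Lnpk, beside HoxD, at -0.62, 1.04, 1.57 and 0.78, named after its values were seen.

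Genes known by their region of the gut were placed beside the Hox ratios. Of the 5 genes known to be higher towards the distal colon, Aqp8, a water channel gene, was saturated in 5 of 8 channels, with ratios of 0.89, 0.47, -0.42 and -0.37 that carry little information. The other 4 had medians of -1.33, 0.50, 0.79 and 0.20 in pairs 1, 2, 4 and 5, with the signs of the posterior Hox medians, and with Aqp8 the medians were -1.23, 0.47, 0.45 and 0.20. Scnn1g, a subunit of the epithelial sodium channel, stood at -3.28, 1.48, 1.88 and 0.69; it was named after its values were seen, and its range ranked 8 among all genes. Scnn1a, another subunit, stood at -0.55, 0.81, 1.13 and 0.20. Insl5, a hormone of distal enteroendocrine cells, differed in sign from these in pairs 2 and 5, at -1.23, -1.47, 0.40 and -2.37.

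Of the genes known from caecum and proximal colon, the neurotensin gene Nts stood at 1.66, 0.26, -1.94 and -0.67, with the signs of the anterior HoxB genes in pairs 1 and 4, and the water channel gene Aqp4 at 0.43, -0.24, 1.74 and 0.54. The 9 small intestinal genes had medians of 0.17, -0.04, -0.58 and -0.69, and 5 had a range of at least 2. The 1 gene among them past the submitters' rule (0.701% of all genes were lower by it), Apoa1, an apolipoprotein gene, stood at -1.03, -0.45, -1.46 and -3.40 (limma adjusted p = 0.597). Slc10a2, the ileal bile acid transporter gene, stood at 1.18, -0.25, -2.65 and -0.75, and Sis, the sucrase-isomaltase gene, at 1.46, 0.14, -1.90 and -1.82. Both were positive in pair 1 and negative in pair 4, as were the anterior HoxB genes. Rbp2, on the same list and also with a range of at least 2, went the other way, at -1.54, 1.05, 0.87 and 0.28. Slc10a2, Sis and Rbp2 were named after their values were seen. The squamous epithelial genes of the anal canal had medians of -0.24, -0.18, -0.04 and -0.01. Whether the scraped region differed between samples was not tested.

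**Figure D5:**
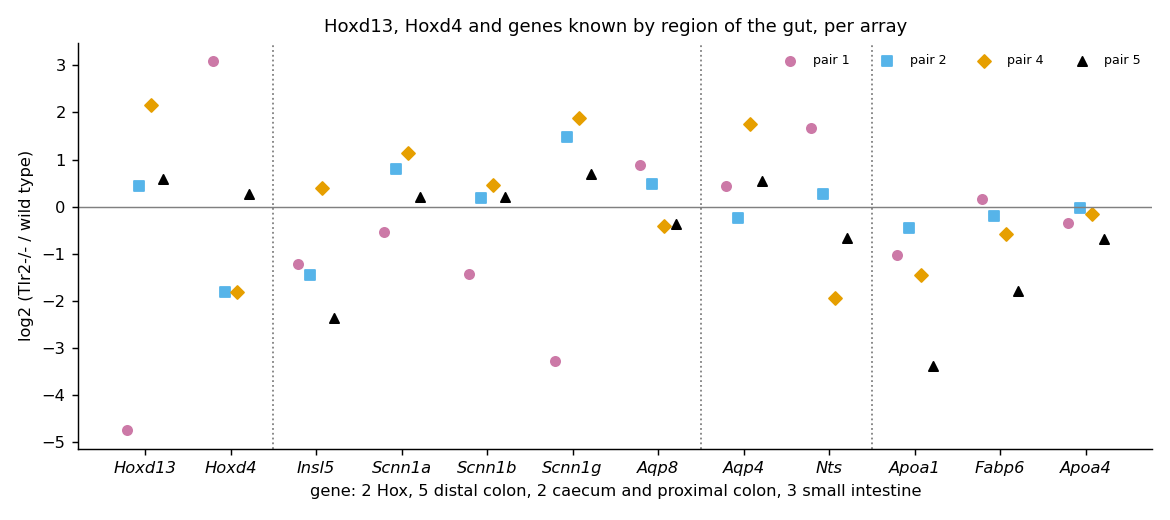
Log2 ratio of Tlr2-/- over WT (vertical axis) for Hoxd13, Hoxd4 and 10 genes known by region of the gut (horizontal axis), 1 marker per array. Hoxd13 and Scnn1g are lowest in pair 1, at -4.76 and -3.28, and highest in pair 4, at 2.15 and 1.88, while Hoxd4 and Nts are highest in pair 1, at 3.09 and 1.66, and lowest in pair 4.

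Markers of other cell types also moved between pairs. The 7 fibroblast markers had median ratios of 0.56, -0.65, -0.64 and 0.10 in pairs 1, 2, 4 and 5, the signs of the anterior Hox medians in all 4 pairs; their median level ran from 7.16 in knockout 2 to 8.05 in knockout 1 among the Cy3 samples. The 7 smooth muscle markers had medians of -0.96, -0.07, -0.25 and 0.40, but they did not move together. Acta2 (-2.01, 1.01, 0.86 and 0.48), Actg2 and Smtn had the signs of the posterior Hox medians in all 4 pairs. Tagln had the opposite signs (0.18, -0.99, -1.63 and -0.03), and Des, Myh11 and Cnn1 were positive in pair 5 only. These genes were named after their values were seen. Of the 6 adipocyte markers 5 were measured, with medians of -0.34, -0.04, 1.26 and 2.82, and their median level among the Cy5 samples ran from 8.13 in WT 2 to 12.54 in knockout 5. The leukocyte markers had medians of 0.02, -0.35, -0.03 and 0.03. Seminal vesicle secretory genes, picked after their values were seen, were high in WT 4: Svs5 was 13.32 there, 8.06 in WT 5 and 6.32 to 7.13 in the other 6 samples. The part of these cell types in the Hox ratios was not tested.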

How the data were processed

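Each of the 4 arrays was a 2-colour Agilent expression array of 43379 spots. The deposited intensity values were extracted by the authors with Agilent Feature Extraction, for which the submitters' processing notes give version 8.5.1.1 and the file headers 10.5.1.1, and each file also holds a log10 ratio of red over green. The authors' deposited tables of hits, given as a ratio per gene, were used only to look up Hox genes. Median intensity was corrected with normexp (offset 50), normalized by loess within each array, turned to knockout over WT and averaged per probe in limma 3.58.1 (R 4.3.3). Channel levels were quantile-normalized on average intensity (Aquantile). All 4 arrays lie on 1 slide with 1 recorded scan time, so no slide or scan batch could be tested.

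Of 41174 probes, 25097 were named by matching the file's accession to RefSeq (GRCm38.p6). A probe was kept if 2 or more arrays had it well above background for 1 genotype, and the brightest probe stood for a gene. Limma was fitted to all 14695 genes with a dye term, and p-values were adjusted by Benjamini-Hochberg. The fit was tested on simulated data. Values were printed per array for the 14 Hox genes of widest range, the 6 of smallest p and the kept genes of groups 12 and 13, and for up to 3 genes of smallest p of the other lists. The members and lists were chosen with earlier results of these data known. Alternatives were the processed signals, no background correction, no or a stricter filter, the mean over probes, the other probe, no dye term and each array left out. The number of arrays limits the precision. The methylation arrays of the series were not used here.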

Additional observations from a re-analysis of the deposited data

Results flagged for a closer look

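Hoxa9 was the 1 Hox gene among 28, and the 1 value among 29 sets of 4 arrays tested, where a single array stood far from the rest. Its log2 ratio was -0.41 in pair 2 and between 0.16 and 0.20 in the other 3 pairs. By chance about 1 in 20 such sets would stand out.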

How the results depend on the processing

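No Hox gene was called by limma under any alternative run, including each array left out. Under the submitters' rule Hoxa7 came out as higher with the processed signals, a count of 1 against 0. With those signals the rule took more genes of any kind, 283 as higher and 267 as lower, against 109 and 103 in the main run. Leaving out each array in turn gave 0 to 3 Hox genes higher, 0 to 2 lower and 3 to 14 with a range of at least 2. Of the 78 cofactor, regulator and neighbour genes, 0 to 6 were past the rule. Of the regional genes, with 5, 2, 9 and 6 measured in their lists, 1 to 6 were. Pair 1 left out gave the lowest of the range counts and the highest of the others. Without that pair the rule took 2.62% of all genes as higher and 3.35% as lower. With the processed signals, 2 of the cofactor, regulator and neighbour genes and 2 of the regional genes passed, and with no background correction 0 of the former did. The range of at least 2, the regional genes without an array and the comparisons by scaling were added after the data were seen. With the processed signals 18 of 28 Hox genes had a range of at least 2, against 15.8% of all genes. They shifted the median of all genes by up to -0.24 (pair 1).

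The posterior minus anterior difference kept its sign in every pair under the processed signals, no background correction, either filter and the mean of probes, though its size moved: in pair 1 it was -3.70 with the processed signals, in pair 4 it was 2.55 with them and 0.78 with no filter, and in pair 5 it was 0.66 and 0.03. The mean of the 4 pairs changed sign when 1 array was left out in 9 of 19 named Hox genes, with values of -0.30 to 0.42 for Hoxb3, -0.62 to 0.58 for Hoxb4, -1.08 to 0.46 for Hoxb5, -0.61 to 0.52 for Hoxb6, -0.65 to 0.24 for Hoxb7, -0.63 to 0.20 for Hoxb9, -1.12 to 0.52 for Hoxd4, -0.57 to 0.85 for Hoxd10 and -1.25 to 1.05 for Hoxd13. It also turned to -0.0023 for Hoxb4 and 0.003 for Hoxb6 with the processed signals, to 0.019 for Hoxd13 with the strict filter or its other probe, and to -0.015 for Hoxa3 and -0.0077 for Hoxb3 with the other probe. Each ratio is already a difference within a pair, so the fit needs no block. No paired analysis was possible because, beyond that, the shared numbers join expression and methylation arrays, which were not compared.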
